A study of Mus musculus with 12 samples.

Results

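The 8 genes described here belong to the pathway by which cells make cholesterol. They are the enzymes Hmgcs1, Idi1, Fdft1, Sqle, Lss and Cyp51, the transcription factor Srebf2, and Insig1, a brake on that factor. They were taken by gene symbol from the 54532 genes of a count table, and each of the 8 symbols named 1 gene. The table held RNA-Seq read counts of the colonic tissue of 12 male C57BL/6J mice of wild-type genotype, 5 weeks old by the labels, in 4 groups of 3. Mice of the control group drank no DSS (dextran sodium sulfate), which damages the lining of the colon when mice drink it. The model group received DSS alone, the Rhy group received DSS with rhynchophylline (an alkaloid of Uncaria plants), and the DXM group received DSS with the glucocorticoid dexamethasone at 4 mg/kg. The Rhy dose of the sequenced mice was not given in the sources used here. The labels give each library as a sample of its own, so p-values measure the spread between these samples.

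Cholesterol is built from acetyl-CoA through mevalonate, the isoprenoid units, squalene and lanosterol. SREBP2, the product of Srebf2, is held in the endoplasmic reticulum by the INSIG proteins while sterols are plentiful. When sterols run low it moves to the Golgi, is cut, and switches on the enzymes of the pathway. Insig1 is itself a target of SREBP2, which closes a feedback loop. In the colon, epithelial cells, smooth muscle and leukocytes all carry the pathway, and in bulk tissue fewer cells of a type and less RNA per cell cannot be told apart.

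The genes lie on several chromosomes. On mm10, with coordinates equal to GENCODE M21 for all 8, Hmgcs1 lies at chr13:119690379-119708260 and Idi1 at chr13:8885501-8892451, both on the plus strand. Fdft1 lies at chr14:63145150-63179578 on the minus strand, Sqle at chr15:59315077-59331192 on the plus strand and Lss at chr10:76531588-76557138 on the plus strand. Cyp51 lies at chr5:4081145-4104746 on the minus strand, Srebf2 at chr15:82147181-82205379 and Insig1 at chr5:28071363-28078662, both on the plus strand. Genes on the opposite strand share exon bases with 5 of the 8. The largest such stretch is 774 of the 4227 exon bases of Fdft1, shared with Ctsb, which encodes the protease cathepsin B. The strand setting of the counting is not given in the sources used here, so reads in such stretches cannot be assigned to a strand. Ctsb stood at 426 to 602 CPM (read counts scaled to library size) over the 12 libraries. Its log2 fold change was −0.12 ± 0.18 (SE) in model against control and −0.06 ± 0.18 in DXM against model. Akap9, a kinase anchoring protein that shares 166 of the 4415 exon bases of Cyp51, stood at 52.7 to 111 CPM.

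Because the genes are known as targets of 1 factor, their promoters are shown where they carry its core motif. RefSeq windows of GRCm38.p6, from 250 bases before to 50 after the start site, matched 6 of the 8 symbols (Hmgcs1, Idi1, Lss, Cyp51, Srebf2 and Insig1). The letters CACNCCA, in which N is any base, form a core of the sterol regulatory element that SREBP2 binds. They were searched on both strands, and were found in the windows of 3 of these 6 genes and in 18.4% of all 32851 windows. The longer TCACNCCAC, which contains the first motif, was found in the Hmgcs1 window and in 1.24% of all windows. The stretches below run 5′ to 3′ on the plus strand, and capitals mark the match. Those of Hmgcs1 (chr13:119690101-119690350) and Srebf2 (chr15:82147019-82147180) lie before the annotated gene. The 30 bases of Insig1 (chr5:28071392-28071421) lie inside its annotated 5′ end, with the match on the opposite strand.
Hmgcs1: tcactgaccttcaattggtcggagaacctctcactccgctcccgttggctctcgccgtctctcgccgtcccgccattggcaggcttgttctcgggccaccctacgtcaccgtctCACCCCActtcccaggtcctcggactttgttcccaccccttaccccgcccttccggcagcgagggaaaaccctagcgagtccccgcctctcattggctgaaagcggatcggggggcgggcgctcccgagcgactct
Srebf2: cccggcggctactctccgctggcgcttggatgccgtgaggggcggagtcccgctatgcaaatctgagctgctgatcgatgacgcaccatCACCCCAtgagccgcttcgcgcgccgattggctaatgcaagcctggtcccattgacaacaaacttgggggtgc
Insig1: cgtgtagtgtcgTGGCGTGtaccttccatg
The letters CCAAT and GGGCGG, the core motifs of NF-Y and Sp1, occurred in all 6 windows, and in 37.4% and 35.7% of all windows. A match is a description of letters and not of a bound site.

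The libraries held 14346478 to 17749716 counts. Of the 54532 genes, 16904 passed a filter on low counts, among them all 8 cholesterol synthesis genes. In 3 libraries, Hoxb13, a homeobox gene of the posterior colon, was under 5 CPM (control 3, model 3 and Rhy 1), against 72.0 to 316 CPM in the other 9. Model 1 and model 2 were more alike than any other pair, with an SD of their log2 ratios over genes of 0.353 against 0.631 to 1.37. The share of counts on mitochondrially encoded genes ran from 6.33% to 25.7%, and was highest in DXM 1 and Rhy 1 (25.7% and 23.8%). A list of 10 genes of the colonic epithelium summed to 18427 to 30433 CPM, and all 10 passed the filter. No gene of the 16904 passed an adjusted p of 0.05 in any comparison with edgeR (0% of genes tested in each). DESeq2 called 65 genes in model against control, 7 in Rhy against model and 54 in DXM against model. It called 65 in Rhy against control, 1173 in DXM against control and 482 for any difference among the groups. In each of these, 0 of the 8 were among the genes called. In the text, higher and lower therefore describe values, and the unadjusted p is given beside the share of all genes that reach it.

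Levels between genes were compared in FPKM, which is scaled to gene length. Hmgcs1, which condenses acetyl-CoA units to HMG-CoA, had the highest level, with a median of 43.6 FPKM over the 12 libraries (26.7 to 61.3). It was above the second gene, Srebf2, at 26.0 FPKM (20.5 to 35.0), in 12 of 12 libraries. Fdft1 followed at 21.1 FPKM, Cyp51 at 16.1, Sqle at 12.6 and Insig1 at 11.02. Idi1 stood at 4.15 FPKM and Lss, whose exons summed to 10787 bases in the length used for the scaling, at 3.06 FPKM. Of the other neighbours in this order, Insig1 was above Idi1 in 12 of 12 libraries and Fdft1 above Cyp51 in 11. Idi1 was above Lss in 10, and Srebf2 over Fdft1, Cyp51 over Sqle and Sqle over Insig1 held in 9 each, so the ranges of these pairs overlapped.

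**Figure D1:**
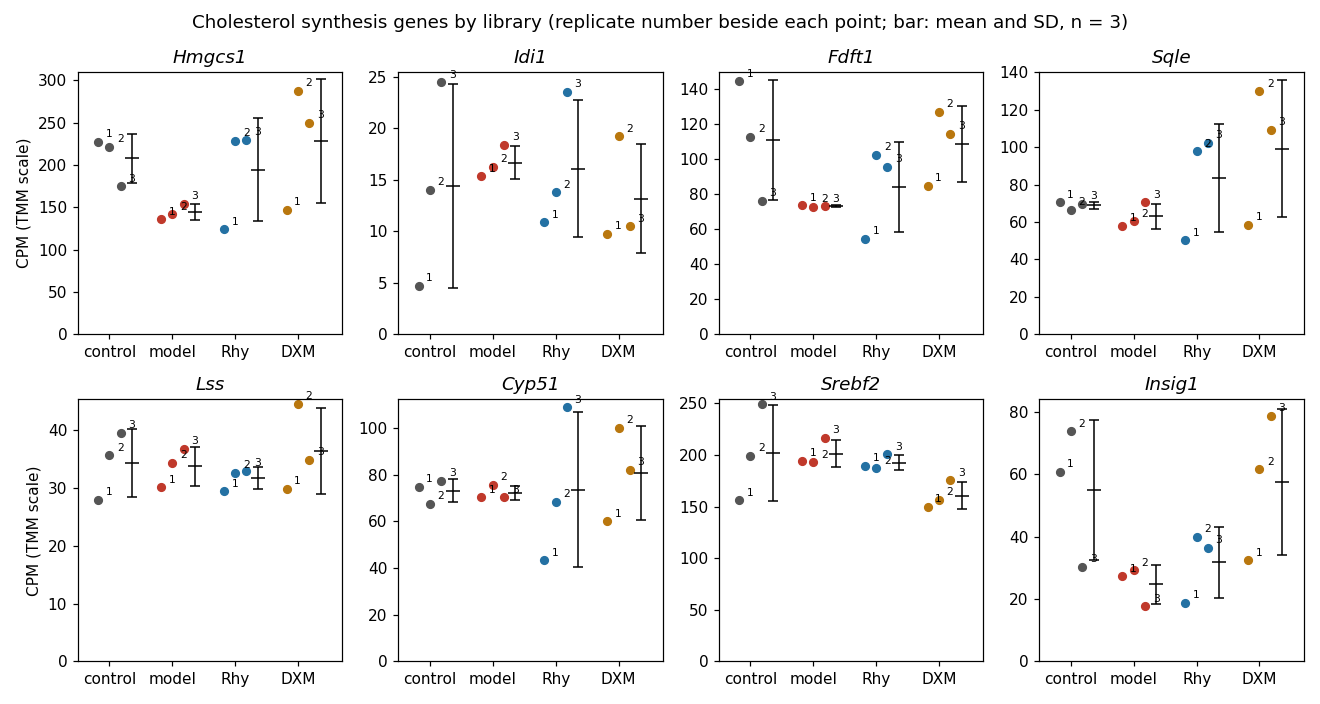
CPM on the TMM scale (vertical axis, from 0) of each of the 8 genes in the 12 libraries, by group (horizontal axis). Points are libraries with their replicate number, and the bar beside them is the mean and SD of 3. In Insig1 all model points (17.7 to 29.2 CPM) lie under all control points (30.3 to 73.8 CPM), and in most panels Rhy 1 and DXM 1 are the lowest of their groups.

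Model against control asked how the pathway stood in the injured colon. Hmgcs1, Fdft1 and Insig1 were lower in every model library than in every control library, and the other 5 genes overlapped. Insig1 showed the largest difference, at 0.451-fold of the control. In total, 1 of the 8 genes (Insig1) reached an unadjusted p under 0.05, where 9.62% of all genes did, and 0 of 8 passed after adjustment. The groups did not overlap in 3 of 8 genes, against 17% of all genes tested. The median log2 fold change of the 8 genes was −0.08, against 0.01 over all genes.

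Insig1 encodes the protein that keeps SREBP2 and its escort SCAP in the endoplasmic reticulum. It was at 60.7, 73.8 and 30.3 CPM in control 1 to 3 and at 27.3, 29.2 and 17.7 CPM in model 1 to 3. The highest model value was just under the lowest control value, that of control 3. The log2 fold change was −1.15 ± 0.41 (SE) and reached the unadjusted threshold, with an edgeR adjusted p of 0.479. Without control 3, model 3 and Rhy 1, the libraries low in Hoxb13, it was −1.29 ± 0.36, and over all 25 alternatives its edgeR, DESeq2 or limma adjusted p ran from 0.143 to 0.887.

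Fdft1, squalene synthase, was at 144, 113 and 75.9 CPM in the control libraries and at 73.4, 72.6 and 73.0 CPM in the model libraries. The model libraries lay within 1 CPM of each other, while the controls ran from just above them to 144 CPM. The log2 fold change was −0.60 ± 0.28 (edgeR adjusted p = 0.520). Hmgcs1 was at 227, 221 and 174 CPM in the control and 136, 142 and 154 CPM in the model libraries, a log2 fold change of −0.53 ± 0.28 (edgeR adjusted p = 0.576). For these 3 genes the exact permutation test of 3 against 3 gave p = 0.1, the smallest it can give. Without the 3 libraries low in Hoxb13, the count at an unadjusted p under 0.05 was 3 of 8 (the same genes, with Fdft1 at −0.85 ± 0.24 and Hmgcs1 at −0.73 ± 0.30), where 15.6% of all genes reached it in that fit. It was 0 without control 2 (6.30% of all genes) or without model 3 (7.97%). It was 2 without control 3 (16.2%), without Rhy 1 (10.9%) or without DXM 1 (10.2%). Rhy 1 and DXM 1 belong to neither group compared, and enter the filter, the scaling and the estimate of the spread. Insig1 stayed at −1.15 without Rhy 1 and at −1.15 without DXM 1.

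The remaining enzymes and Srebf2 overlapped between control and model. Sqle, squalene epoxidase, was at 70.4, 66.5 and 69.5 CPM in control and 58.0, 60.3 and 70.5 CPM in model libraries. Lss, lanosterol synthase, was at 27.9, 35.7 and 39.5 CPM against 30.1, 34.3 and 36.8 CPM. Cyp51, the lanosterol demethylase, was at 74.8, 67.7 and 77.3 CPM against 70.4, 75.8 and 70.4 CPM. These 3 enzymes had log2 fold changes of −0.13 to −0.02. Idi1, which interconverts the isoprenoid units, was the most uneven gene in the control group, at 4.72, 14.05 and 24.5 CPM, and its model libraries (15.3, 16.3 and 18.4 CPM) lay inside that range. Srebf2 averaged 201 CPM in both groups (SD 46.5 in control and 13.2 in model, n = 3 each), with a log2 fold change of −0.0021 ± 0.19.

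The 8 genes summed to 741 to 791 CPM in the control libraries and to 605 to 657 CPM in the model libraries. Other lists moved between these groups as well. Of 10 proliferation genes, 10 had higher means in the model group and 4 reached an unadjusted p under 0.05, and their sum was 182 to 321 CPM in control and 344 to 469 CPM in model libraries. Of 8 genes of mature colonocytes, 4 reached it in the lower direction (sum 10113 to 23414 CPM in control, 8342 to 13127 CPM in model). Of 10 epithelial genes, 2 did (sum 20110 to 30433 CPM against 19019 to 22417 CPM). Of all genes, 9.62% reached that p in either direction. None of these lists had a gene at 0 in all libraries. Their part in the values of the cholesterol synthesis genes was not tested.

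**Figure D2:**
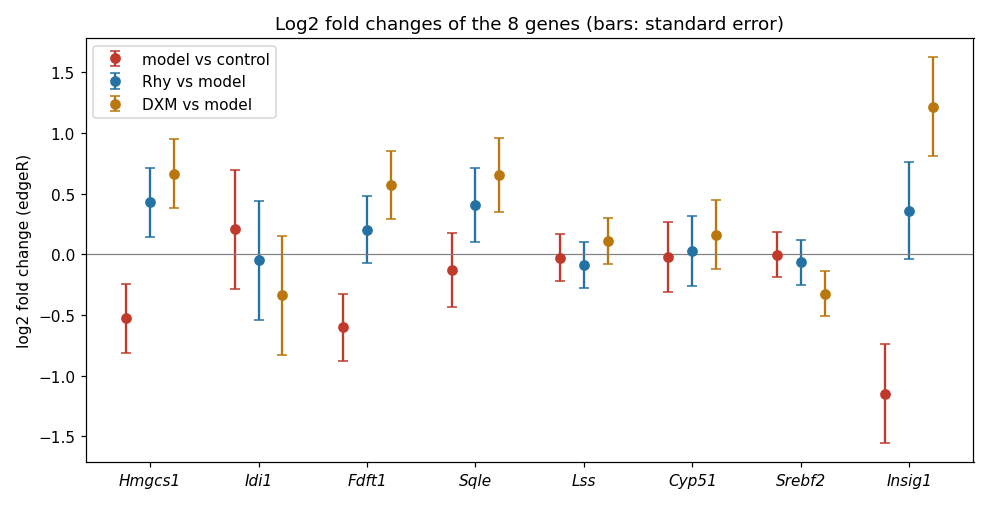
Log2 fold change from edgeR (vertical axis) of the 8 genes (horizontal axis) in model against control, Rhy against model and DXM against model, with the standard error as bars. Insig1 lies at −1.15, 0.36 and 1.22, while Lss and Cyp51 lie within 0.17 of 0 in all 3 comparisons, which share the model libraries.

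Rhy against model asked how the pathway stood with rhynchophylline in colitis. None of the 8 genes separated the groups (0 of 8 not overlapping, against 11.5% of all genes), 0 of 8 reached an unadjusted p under 0.05, where 3.72% of all genes did, and DESeq2 also gave 0. The median log2 fold change of the 8 was 0.12, against −0.01 over all genes. The Rhy libraries were split: Rhy 2 and Rhy 3 were above all model libraries in Hmgcs1, Fdft1, Sqle and Insig1, and Rhy 1 was below at least 2 of the 3 in each of these.

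In Hmgcs1, Rhy 1 was at 124 CPM and Rhy 2 and 3 at 228 and 230 CPM, against 136 to 154 CPM in the model group (log2 fold change 0.43 ± 0.28, edgeR adjusted p = 1.00). In Sqle the values were 50.1, 97.7 and 102 CPM against 58.0 to 70.5 CPM (0.41 ± 0.30). In Insig1 they were 18.8, 40.0 and 36.4 CPM (0.36 ± 0.40), and in Fdft1 54.4, 102 and 95.3 CPM (0.20 ± 0.28). Cyp51 spread most evenly, at 43.3, 68.4 and 109 CPM in Rhy 1 to 3, around a model range of 70.4 to 75.8 CPM (0.03 ± 0.29). Idi1 (10.9, 13.8 and 23.5 CPM), Lss (29.5, 32.7 and 33.0 CPM) and Srebf2 (189, 187 and 201 CPM) had log2 fold changes of −0.09 to −0.05. Rhy 1 is one of the libraries low in Hoxb13 and high in mitochondrial counts. Without it, Hmgcs1 was at 0.67 ± 0.26 and Sqle at 0.67 ± 0.28, so that 2 of 8 genes reached an unadjusted p under 0.05, where 6.13% of all genes did in that fit. Over all alternatives the adjusted p of Hmgcs1 (edgeR, DESeq2 or limma) ran from 0.581 to 1.00 and that of Sqle from 0.584 to 1.00. The smooth muscle list summed to 5673 to 6533 CPM in the Rhy and 3688 to 4808 CPM in the model libraries. With all libraries, 1 of its 8 genes was higher at an unadjusted p under 0.05, which 3.72% of all genes reached. The epithelial list summed to 24039 to 26804 CPM against 19019 to 22417 CPM, with 8 of 10 genes higher by value and 0 of 10 at that p. All 10 proliferation genes were lower by value (sum 169 to 392.4 CPM against 344 to 469 CPM), and 0 of 10 reached it. Their part was not tested.

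DXM against model asked the same of dexamethasone. Insig1, Hmgcs1, Sqle and Fdft1 had means 1.49 to 2.33 times those of the model group, Lss and Cyp51 differed by less than their standard errors, and Srebf2 was lower. At an unadjusted p under 0.05 were 2 of 8 genes (Insig1 and Hmgcs1, both higher), where 7.69% of all genes were, and 0 of 8 passed after adjustment. The groups did not overlap in 3 of 8 genes, against 22.6% of all genes. The median log2 fold change of the 8 genes was 0.37, against −0.01 over all genes.

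Insig1 was at 32.4, 61.6 and 78.7 CPM in DXM 1 to 3, each above the highest model library at 29.2 CPM. Its log2 fold change was 1.22 ± 0.41, a 2.33-fold higher mean (edgeR adjusted p = 0.622). Without DXM 1 it was 1.502 ± 0.396 and without DXM 3 it was 0.93. Hmgcs1 was at 147, 288 and 250 CPM, with DXM 1 inside the model range of 136 to 154 CPM and the others well above it (0.66 ± 0.29, edgeR adjusted p = 0.638). Sqle had the same shape, at 58.5, 130 and 109 CPM against 58.0 to 70.5 CPM (0.66 ± 0.30, edgeR adjusted p = 0.649). Fdft1, at 84.5, 127 and 114 CPM, was above its 3 tightly spaced model libraries in all 3 DXM libraries (0.57 ± 0.28, edgeR adjusted p = 0.660).

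Srebf2, the gene of the factor itself, went the other way from these targets. It was at 150, 157 and 175 CPM in the DXM libraries, all below the model range of 193 to 216 CPM, with a log2 fold change of −0.33 ± 0.19 (edgeR adjusted p = 0.684). Control 1, at 156 CPM, fell within the DXM range. Idi1 was at 9.74, 19.2 and 10.5 CPM in DXM libraries (−0.34 ± 0.49). Lss was at 29.8, 44.5 and 34.8 CPM (0.11 ± 0.19) and Cyp51 at 60.1, 100 and 82.1 CPM (0.16 ± 0.29), and both overlapped the model group.

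The count of 2 in DXM against model rested on single libraries. It was 4 (Insig1, Hmgcs1, Sqle and Fdft1) without DXM 1, without Rhy 1 and without the libraries low in Hoxb13, where 8.17%, 9.74% and 9.11% of all genes reached the same p. It was 0 without DXM 3 (3.11% of all genes) and 1 without DXM 2 (9.20%). It was also 1 without any 1 of the model libraries (4.44% to 5.23%) or with model 1 and model 2 summed as 1 library (4.24%). DESeq2 gave 3 of 8, where it gave 9.29% of all genes. The smooth muscle list summed to 5122 to 9180 CPM in the DXM and 3688 to 4808 CPM in the model libraries, with 4 of its 8 genes higher at an unadjusted p under 0.05. The leukocyte list summed to 292 to 609 CPM against 243 to 270 CPM, with 2 of 9 higher at that p, which 7.69% of all genes reached. All 10 proliferation genes were lower by value here too (sum 176 to 494 CPM against 344 to 469 CPM), and 0 of 10 reached that p. Of the 10 epithelial genes, 8 were lower by value and 1 reached that p, in the lower direction. The list of mature colonocytes summed to 15377, 3984 and 3162 CPM in DXM 1 to 3, against 8342 to 13127 CPM in the model libraries. Its gene Car1 was at 11102, 1170 and 509 CPM in DXM 1 to 3. By value 4 of its 8 genes were higher and 4 lower than in the model group, and 1 reached that p, in the higher direction. The part of these lists in the values of the cholesterol synthesis genes was not tested.

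Against the control group, neither treated group separated from it in any of the 8 genes. In Rhy against control, 0 of 8 genes reached an unadjusted p under 0.05, where 11.6% of all genes did, and 0 of 8 did not overlap, against 12.3%. The lowest p was that of Insig1, at −0.79 ± 0.40 (edgeR adjusted p = 0.466). In DXM against control the counts were again 0 of 8 and 0 of 8, against 18.9% and 18.7% of all genes. There the lowest p was that of Srebf2, which was lower, at a log2 fold change of −0.33 (edgeR adjusted p = 0.361). Insig1 was at 0.07 ± 0.40 and Sqle at 0.53 ± 0.30 (edgeR adjusted p = 0.363). DESeq2 gave 1 of 8 (Srebf2, lower) at an unadjusted p under 0.05 in DXM against control, where it gave 21.1% of all genes. In Rhy against control it gave 0 of 8, where it gave 13.4% of all genes. Without Rhy 1 and DXM 1 together, a choice made after the values were seen, Sqle passed in DXM against control at 0.80 ± 0.17 (edgeR adjusted p = 0.0330, the lowest of 25 alternatives, which reached up to 0.707), in a fit in which 862 of 17274 genes passed. In a test of any difference among the 4 groups, 1 of 8 genes reached an unadjusted p under 0.05 (Insig1, edgeR adjusted p = 0.408), where 11.5% of all genes did.

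Libraries of 1 group lay apart, most of all in the treated groups. The mean log2 CPM of the 8 genes was lowest in Rhy 1 (5.496) and DXM 1 (5.73) and highest in DXM 2 (6.48), with model 1 to 3 at 5.82, 5.89 and 5.88 and control 1 to 3 at 5.96, 6.20 and 6.11. The pooled SD between replicates was 0.29. Rhy 1 and DXM 1 were also the libraries with the highest mitochondrial share, at 23.8% and 25.7%, against 7.48% to 15.2% in the other 4 treated libraries. Control 1, at 21.0%, had the lowest mean of the control group. Its summed CPM of the 8 genes, 766, was above the 741 of control 3, where the mitochondrial share was 6.33%. With the mitochondrially encoded genes taken out of the counts before scaling, Insig1 was at −1.20 ± 0.41 in model against control and 1.27 ± 0.41 in DXM against model. The part of RNA quality in the low libraries was not tested.

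**Figure D3:**
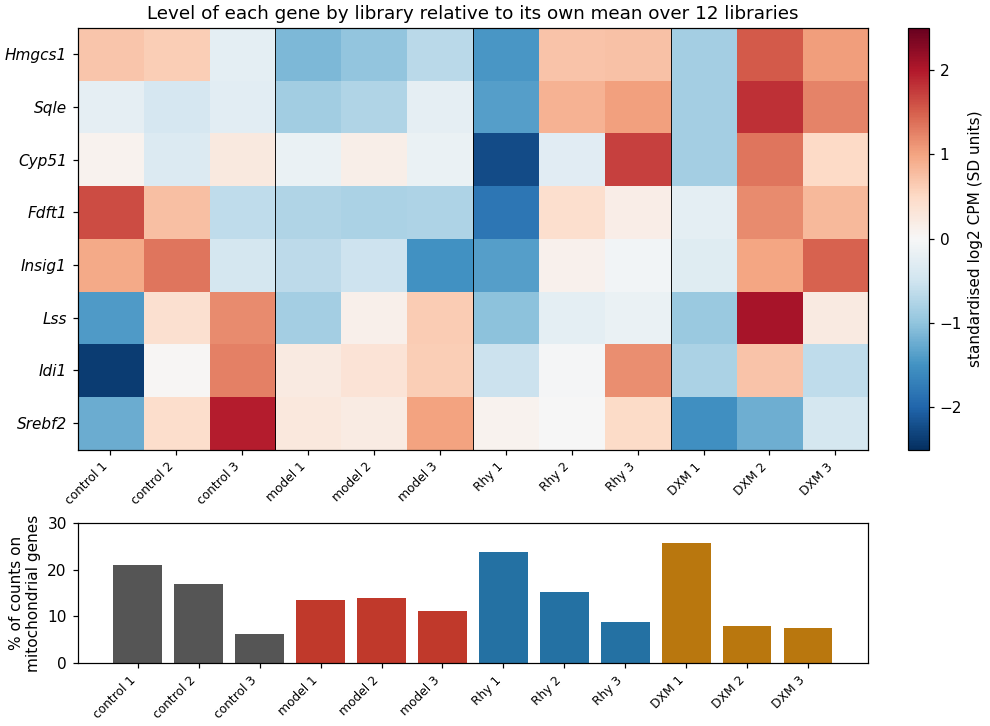
Top, log2 CPM of each gene (rows) in the 12 libraries (columns), in SD units from the gene's own mean (blue low, red high). Bottom, share of counts on mitochondrially encoded genes in percent. Rhy 1 and DXM 1 are blue in nearly every row and carry the tallest bars, 23.8% and 25.7%, and DXM 2 is red in all rows but Srebf2.

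The 8 genes did not vary as 1 block across libraries. The correlations here are over 12 libraries that share scaling and groups, are given as a description, and carry no p. Sqle (r = 0.81), Hmgcs1 (0.79) and Cyp51 (0.79) followed the mean of the other 7 genes most closely, Lss (0.65), Fdft1 (0.51) and Insig1 (0.49) less, and Idi1 (0.28) and Srebf2 (−0.08) least. Hmgcs1 ran with Fdft1 (r = 0.89), Sqle (0.89) and Insig1 (0.83), and Insig1 with Fdft1 (0.90). Srebf2 instead ran with Idi1 (0.67), which in turn ran with Lss (0.68), while Srebf2 and Fdft1 went in opposite directions (−0.51). With the group means subtracted, Hmgcs1 and Sqle were at r = 0.95, and Srebf2 and Idi1 at 0.80. Against the mean of the other 7, Idi1 was then at 0.50 and Srebf2 at 0.24, the latter with its sign turned. In Srebf2, control 3 was the highest of the 12 libraries (249 CPM), where Fdft1 was lowest of the control group (75.9 CPM).

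Of the 16896 other genes tested, those most like the mean of the 8 across the 12 libraries included Gm17435, Zfp932, Gm10108, Itgb3bp, Bivm, Ergic2, Usp15 and Med7, with r from 0.83 to 0.92. Gm17435 and Gm10108 averaged only 1.93 and 1.05 CPM. Among the other enzymes of the pathway, Msmo1 ranked 30 (r = 0.78), while Dhcr7 ran the other way (−0.39).

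The other enzymes of cholesterol synthesis did not share 1 direction. Of 15 such enzymes, all of which passed the filter, 6 had positive and 9 negative log2 fold changes in model against control, with a median of −0.12. Where 9.62% of all genes reached an unadjusted p under 0.05, 2 of the 15 did, both higher. They were Acat2, which joins acetyl-CoA units (0.80 ± 0.33, edgeR adjusted p = 0.493), and Pmvk, phosphomevalonate kinase (0.48 ± 0.22, edgeR adjusted p = 0.516). Acat2 was at 19.5, 26.0 and 37.1 CPM in control and 50.4, 55.9 and 37.3 CPM in model libraries, the lowest of which barely cleared the controls. In DXM against model, 8 were positive and 7 negative, with a median of 0.03. There 0 of 15 reached an unadjusted p under 0.05 in either direction, where 7.69% of all genes did. The nearest were Dhcr7, a late reductase of the pathway (−0.44 ± 0.21, edgeR adjusted p = 0.650), and Msmo1, the sterol C4 methyl oxidase (0.74 ± 0.35, edgeR adjusted p = 0.655). In Rhy against model, 0 of 15 reached that p, against 3.72% of all genes, with a median of 0.02. Fdps, farnesyl diphosphate synthase, stood at only 0.428 to 4.92 CPM, and the table holds 1 row described as its pseudogene with 0 counts, and how reads shared with copies were counted is not given, so its value is uncertain.

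**Figure D4:**
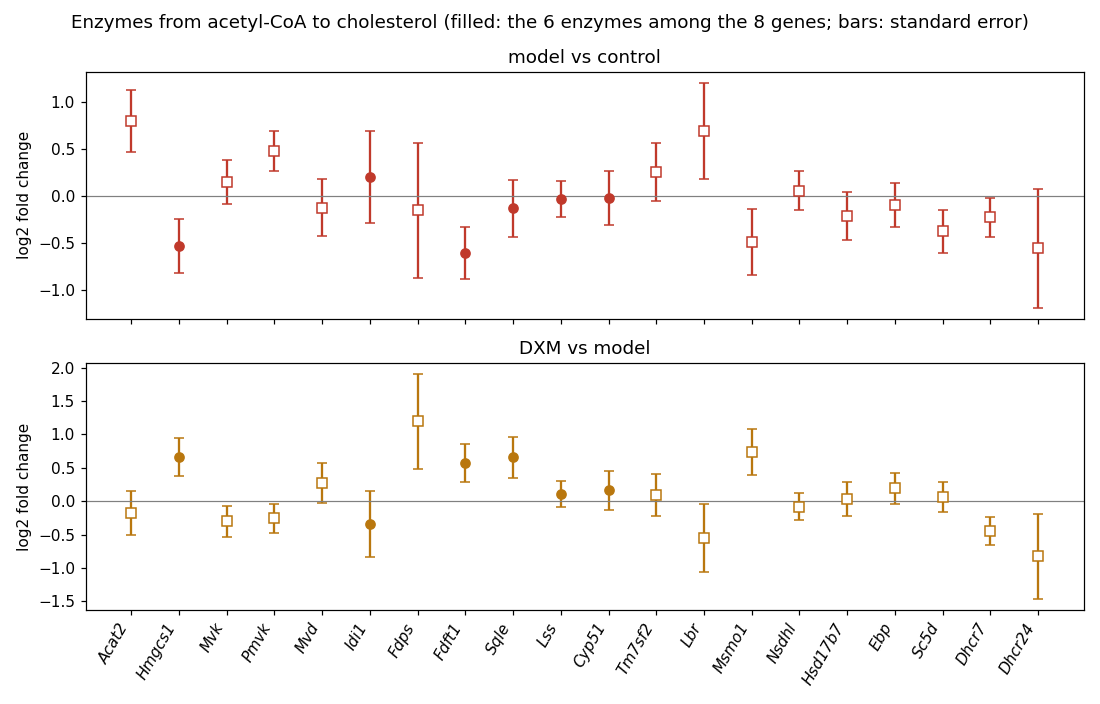
Log2 fold change from edgeR (vertical axis) of 20 enzymes in the order of the pathway (horizontal axis), with the standard error as bars, in model against control (top) and DXM against model (bottom). Filled circles are the 6 enzymes among the 8 genes and open squares 14 of the others. Hmgcs1 and Fdft1 lie lower in the top panel (−0.53 and −0.60) and higher in the bottom panel (0.66 and 0.57), with both panels sharing the model libraries.

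Genes that process SREBP2 and move sterols were measured beside these. Of the 5 genes of SREBP handling, 0 reached an unadjusted p under 0.05 in any of the 3 comparisons. Of all genes, 9.62% did in model against control, 3.72% in Rhy against model and 7.69% in DXM against model. Scap, the escort of SREBP2, was at 59.2, 61.0 and 60.1 CPM in the model and 49.6, 46.0 and 49.2 CPM in the Rhy libraries (−0.32 ± 0.15, edgeR adjusted p = 1.00), with no overlap. Mbtps1, the Golgi protease that makes the first cut, was also lower in all 3 Rhy libraries (−0.25 ± 0.15, edgeR adjusted p = 1.00). Thus 2 of these 5 genes did not overlap between Rhy and model, against 11.5% of all genes. Of 7 genes of sterol uptake and transport, 2 reached an unadjusted p under 0.05 in model against control, where 9.62% of all genes did. Npc1, which exports cholesterol from lysosomes, was at 36.6, 78.4 and 45.4 CPM in control and 31.4, 30.4 and 21.5 CPM in model libraries (−0.95 ± 0.30, edgeR adjusted p = 0.459). Its partner Npc2 was at 134 to 135 CPM in control and 141 to 223 CPM in model libraries (0.53 ± 0.24, edgeR adjusted p = 0.516). In DXM against model and in Rhy against model 0 of the 7 did.

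Of 9 genes of sterol efflux under the LXR receptors, 9 were lower in model against control by value. Of these, 0 reached an unadjusted p under 0.05, where 9.62% of all genes did. In Rhy against model 2 of the 9 did (Abcg5 and Abcg8, both higher), where 3.72% of all genes did. In DXM against model 1 did (Abcg5, higher), where 7.69% of all genes did. Abcg5, a subunit of the sterol exporter of the gut and liver, was at 0.119 to 0.364 CPM in the model libraries, and at 0.0856, 0.914 and 8.09 CPM in the Rhy and 7.41, 0.482 and 2.48 CPM in the DXM libraries. Its log2 fold changes were 3.67 ± 1.37 in Rhy against model (edgeR adjusted p = 1.00) and 3.83 ± 1.38 in DXM against model (edgeR adjusted p = 0.622), each carried by 1 or 2 libraries. Its partner Abcg8 was high in Rhy 3 as well (4.53 CPM). In Rhy 1 and 2 Abcg8 was at 0 and 0.131 CPM, and the Rhy and model groups overlapped. Of 8 genes of fatty acid synthesis, the arm of SREBP1, 7 were higher by value in model against control. Of the 8, 0 reached an unadjusted p under 0.05 there (9.62% of all genes). In Rhy against model 6 of the 8 were lower by value and 0 reached that p (3.72% of all genes). In DXM against model 6 of the 8 were lower by value and 1 reached that p (7.69% of all genes). That gene was Acaca, acetyl-CoA carboxylase, at 43.6, 47.6 and 40.7 CPM in model and 30.9, 35.6 and 29.2 CPM in DXM libraries (−0.46 ± 0.18, edgeR adjusted p = 0.637).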

How the data were processed

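RNA-Seq covered colonic tissue of 12 mice, 3 per group. The authors deposited raw read counts per gene, without normalization, and FPKM values made from the same counts and scaled to gene length and library size. The submitters' processing notes name HISAT2 2.0.5, featureCounts 1.5.0-p3, DESeq2 1.16.1 and the build mm10. Total counts were 14346478 to 17749716 per library, and the number of reads limits the precision of low genes such as Abcg8, at 0 CPM in Rhy 1. Idi1 held 63 counts in control 1 and 446 in control 3, with a control mean of 14.4 CPM and an SD of 9.89 between libraries.

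Counts entered edgeR 4.0.16 under R 4.3.3: filterByExpr with a minimum count of 10 (16904 of 54532 genes), TMM scaling, and the quasi-likelihood test, two-sided, in 1 fit of 12 libraries, with Benjamini-Hochberg adjustment within each of 5 comparisons. The standard error was the log2 fold change divided by the square root of F. The threshold was 0.05. CPM carries no prior count, and log2 CPM one of 2. DESeq2 1.42.0 and limma 3.58.1 on log2(FPKM + 1) and log2(FPKM + 0.1) served as alternatives, beside other scalings, filters, a replicate block and single libraries left out. The tests were run on simulated counts with large changes and the same spread for every gene. That checks the code, and not how the tests perform on these libraries.

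The 8 genes and all lists were chosen with earlier results of these data known. Named genes were the 8, a pair of further genes fixed by name that is not reported here, the 4 genes of the pathway lists with the smallest p in each comparison with the model group, and the 10 genes most like the 8 across libraries. Genes overlapping the 8, Fdps and Hoxb13 were added after their values were seen, as were 3 alternatives: removal of mitochondrially encoded genes, of libraries with Hoxb13 under 5 CPM, and of Rhy 1 with DXM 1. Lists of fat cells, pancreatic acinar cells and colon position were computed too. In model against control they had 0 of 6, 1 of 1 and 0 of 4 tested genes at an unadjusted p under 0.05, where 9.62% of all genes were. The acinar gene tested was Cela1. The other acinar genes listed (Prss2, Cela2a, Cpa1, Pnlip and Ctrb1) were at 0 to 0.150 CPM and did not pass the filter. The labels give no batch. Same-numbered model and control libraries deviated together from their group means (r = 0.104 to 0.363). The highest r was that of replicate 3, where both libraries were low in Hoxb13. The labels name no pairs and the main fit used none, so its standard errors and p-values are unpaired. A replicate block is given below as an alternative. In the other 4 comparisons r was −0.310 to 0.142.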

Additional observations from a re-analysis of the deposited data

How the results depend on the processing

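With 3 libraries per group, the exact permutation test cannot go below p = 0.1, so that no difference could pass 0.05 in it. In edgeR, DESeq2 and limma, no gene of the 8 passed the adjusted threshold under any of 25 alternatives in 4 of the 5 comparisons, or of 24 for any difference among groups. The exception was the remaining comparison, DXM against control, without Rhy 1 and DXM 1 (added after the data were seen), where 1 passed (Sqle, 0.80). Of 1000 fold changes under the alternatives, 932 kept their direction and side of the threshold, 67 turned and 1 came to pass. The cause of these shifts was not tested.

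The count of genes at an unadjusted p under 0.05 moved as follows, with the share of all genes at that p in brackets. In model against control (1, 9.62%) it was 2 with RLE scaling (9.74%), every gene with any count (6.72%), DESeq2 (11.3%) or mitochondrial genes removed (9.74%). It was 3 with only the groups compared (9.92%), without the libraries low in Hoxb13 (15.6%), or without Rhy 1 and DXM 1 (12.1%). In Rhy against model (0, 3.72%) it was 2 under both of the latter (8.42% and 6.58%). In DXM against model (2, 7.69%) it was 3 with RLE (7.63%) or upper-quartile scaling (8.00%), DESeq2 (9.29%) or mitochondrial genes removed (7.82%). It was 4 with any count (5.86%), only the groups compared (15.4%), or under both of the latter (9.11% and 1905 of 17274 genes). It was 1 with each limma fit (6.41% to 7.94%) or with model 1 and model 2 summed (4.24%). In Rhy against control (0, 11.6%) it was 1 with any count (7.87%) and under both of the latter (21.5% and 17.5%). In DXM against control (0, 18.9%) it was 1 with DESeq2 (Srebf2, 21.1%) and 1 without Rhy 1 and DXM 1 (Sqle, 23.3%). For any difference (1, 11.5%) it was 0 with limma on FPKM of every gene (8.17%), 2 without the libraries low in Hoxb13 (18.2%) and 3 without Rhy 1 and DXM 1 (17.2%). Leaving out 1 library gave 0 to 2, 0 to 2, 0 to 4, 0 to 2, 0 to 1 and 0 to 3 in these 6 tests. In Rhy against control the 2 came without control 3 (16.9%), and in DXM against control the 1 came without DXM 1 (20.9%) or control 1 (23.5%). For any difference, it was 3 without DXM 1 (12.9%), 2 without control 3 (14.9%), and 0 without DXM 2, DXM 3, model 1 or model 3 (6.61% to 10.8%).

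The directions that turned belonged to small log2 fold changes. In model against control, Srebf2 was at 0.028 with upper-quartile scaling, 0.0069 with any count, 0.026 with model 1 and 2 summed and 0.084 without the libraries low in Hoxb13. Lss was at 0.00022 with upper-quartile scaling and 0.0030 with model 1 and 2 summed, and Cyp51 at 4.1e-05 with upper-quartile scaling. In Rhy against model, Cyp51 was at −0.035, −0.043 and −0.035 in the 3 limma fits. Without the libraries low in Hoxb13, Srebf2 was at 0.030, Idi1 at 0.27 and Lss at 0.055, and Idi1 was at 0.16 without Rhy 1 and DXM 1. In Rhy against control, Cyp51 was at −0.019 with RLE scaling, −0.011 with only the groups compared, −0.018 with DESeq2 and −0.11, −0.12 and −0.11 in the limma fits. Without the libraries low in Hoxb13, Srebf2 was at 0.11, Hmgcs1 at 0.022 and Lss at 0.034, and Hmgcs1 was at 0.14 without Rhy 1 and DXM 1. In DXM against control, Fdft1 was at 0.054 with upper-quartile scaling and 0.12 without Rhy 1 and DXM 1. Idi1 was at 0.036 with limma on log2(FPKM + 0.1), 0.46 without the libraries low in Hoxb13 and 0.039 without Rhy 1 and DXM 1, and Insig1 was at −0.25 without the libraries low in Hoxb13.

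Leaving out 1 library gave these ranges where a direction turned. In model against control: Srebf2 −0.16 to 0.15, Lss −0.16 to 0.057, Idi1 −0.21 to 0.80. In Rhy against model: Cyp51 −0.37 to 0.30, Idi1 −0.43 to 0.16, Lss −0.17 to 0.0063, Srebf2 −0.097 to 0.020. In DXM against model: Cyp51 −0.024 to 0.34, Lss −0.063 to 0.23. In Rhy against control: Cyp51 −0.39 to 0.28, Hmgcs1 −0.23 to 0.14, Idi1 −0.26 to 0.76, Srebf2 −0.22 to 0.10. In DXM against control: Cyp51 −0.044 to 0.32, Fdft1 −0.26 to 0.20, Hmgcs1 −0.067 to 0.37, Idi1 −0.55 to 0.46, Insig1 −0.25 to 0.35, Lss −0.089 to 0.21.

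With the replicate number as a block (replicate block), the count at an unadjusted p under 0.05 stayed 1 in model against control (10.8% of all genes; median log2 fold change of the 8 −0.08) and was 3 in DXM against model (7.36%). Srebf2 turned to 0.014 in model against control, Cyp51 to −0.036 in Rhy against model and −0.060 in Rhy against control, and Idi1 to 0.045 in DXM against control. The block changed no other call.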
